A study of Mus musculus with 30 samples.

Results

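The comparison described here set Cry2-null mouse embryonic fibroblasts (MEFs) carrying the CRY2 protein D325H against the same kind of cells carrying an empty vector (EV), both plated at high density. Its members are 6 of the 30 RNA sequencing libraries of the series, 3 D325H and 3 EV, chosen by the construct and the density in their labels. The series crossed 5 constructs with 2 plating densities in 10 groups of 3 biological replicates, and its title names the suppression of P53 and the growth of cells. Every library came from primary MEFs that lack Cry2 and stably overexpress c-MYC, grown in 3% oxygen with 15% serum. For the D325H and EV groups at high density, 500 cells were plated per well and RNA was taken on day 11 from 2 wells combined. The same constructs at low density were plated at 150 cells per well and harvested on day 14, and cells with wild-type CRY2 (WT) at high density had 500 cells per well. The promoters that drive the constructs are not given in the sources used here, and the labels do not say whether the replicates of a construct are separately derived lines. A difference between constructs is therefore also a difference between cell lines. The spread behind each p-value is only that among replicate libraries, pooled over the 10 groups of the series.

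CRY2 is a cryptochrome, a protein that with the PER proteins holds back the clock activators CLOCK and BMAL1 at E-box sequences and so closes the feedback loop of the circadian clock. It also acts as a cofactor of SCF ubiquitin ligases, among them the ligase that marks c-MYC for degradation. p53, encoded by Trp53, is the transcription factor that raises genes for cell cycle arrest, DNA repair and cell death under stress, and embryonic fibroblasts driven by MYC are a textbook setting for its activity.

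All 16 fibroblast markers were expressed highly enough to be tested, and their summed level ran from 13358 to 15062 TPM in the D325H libraries and from 12447 to 14362 TPM in the EV libraries. TPM is an abundance per transcript length scaled to a fixed total. Vim, the intermediate filament of mesenchymal cells, averaged 6486 TPM with D325H and 6851 TPM with EV. The proteoglycan genes Dcn and Lum, often used as fibroblast markers, averaged only 2.17 and 2.13 TPM with D325H and 0.451 and 0.955 TPM with EV. None of the 10 endothelial markers and 1 of the 12 macrophage markers (Cd68) passed the filter on low values, and the myogenic regulators Myod1, Myf5 and Myf6 were listed at 0 in all 6 libraries. Markers of epithelial and neural cells were lower in sum with D325H, and none of the 5 of 10 tested on either list was called. The epithelial sum was 89.2 to 249.7 TPM with D325H and 349 to 435 TPM with EV, and nearly all of it was the keratin Krt19, at 206, 87.9 and 244 TPM with D325H and 427, 344 and 372 TPM with EV (-1.20 ± 0.46, limma with BH-adjusted p = 0.202). Epcam averaged 0.0992 TPM with D325H and 0.0707 TPM with EV, and Cldn4 and Esrp1 were at 0 in all 6 libraries. The neural sum was 18.3 to 34.3 TPM with D325H and 36.7 to 48.2 TPM with EV, with Sox10 at 0 in all 6. Their part in the results below was not tested. One D325H library stood apart: replicate 3 had 16258 genes above 0, whereas the other 5 libraries had between 18906 and 19145. The number of genes at 1 TPM or more was 12495 to 12535 with D325H and 12378 to 12404 with EV. The median SD of a gene within its group, on the scale log2(TPM + 1), was 0.19 with D325H and 0.11 with EV.

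Expression was compared as log2(TPM + 1), D325H minus EV, so that a positive difference is higher with D325H, and differences are given with their standard error on that scale, which understates the change of genes with low TPM. Of 14093 genes tested with limma, 100 passed a Benjamini-Hochberg (BH) adjusted p of 0.05, 0.71% of those tested, and these are the genes named as called. They divided into 51 genes called higher (0.362%) and 49 genes called lower (0.348%), and 2288 genes had an unadjusted p under 0.05. The median difference over all genes was -0.02. In 30% of all genes tested the 3 D325H libraries did not overlap the 3 EV libraries, 12.9% with D325H above EV and 17.1% with D325H below. These shares are the background for the counts below.

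The number of called genes depended on single libraries. Leaving out D325H replicate 3 gave 259 called genes, 89 of them among the 100. Leaving out D325H replicate 1 or 2 gave 19 and 9, and leaving out EV replicate 1, 2 or 3 gave 22, 12 and 11. Called in all 6 of these fits were Cry2, Btg2, Grb10, Lrch2, Myocd and the pseudogene Gm15280, whereas 63 of the 100 genes kept the call only when D325H replicate 3 was the library left out. Adjusted p-values over the leave-one-out fits are given beside the genes below.

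**Figure D1:**
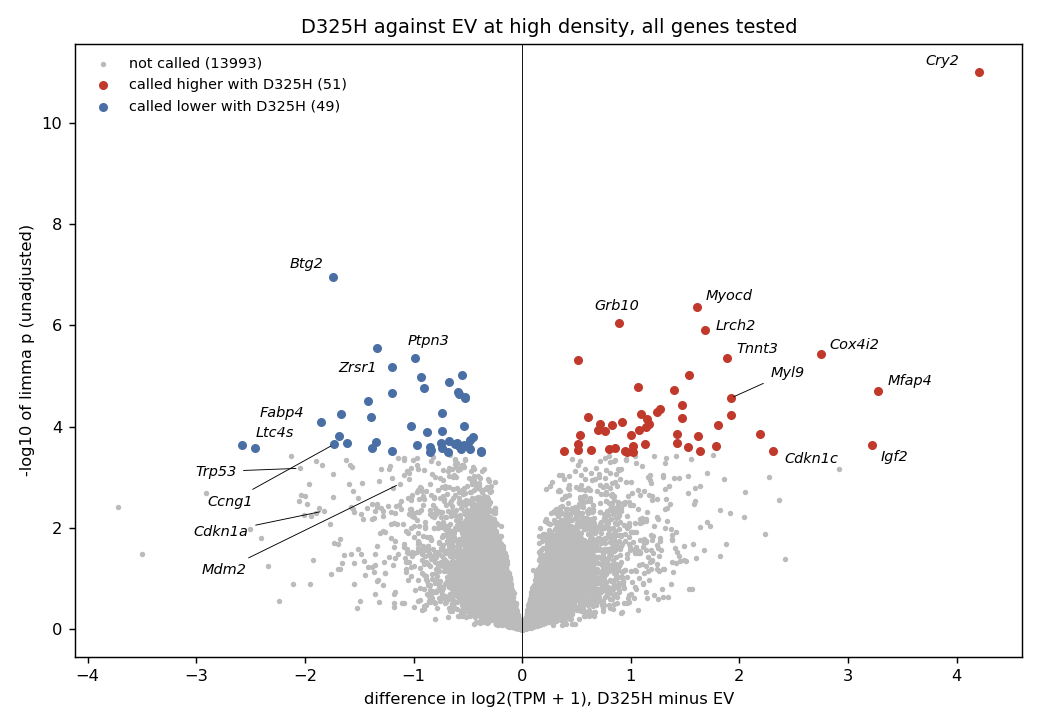
Each point is 1 of the 14093 genes tested, with the difference D325H minus EV in log2(TPM + 1) on the horizontal axis and -log10 of the unadjusted limma p on the vertical axis. Cry2 lies farthest to the right at 4.21, Btg2 is highest on the vertical axis among the 49 genes called lower, and Trp53, Cdkn1a and Mdm2 lie to the left among the genes not called.

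The introduced gene was checked as a test of which libraries carry a CRY2 construct. Its RNA level does not tell D325H from WT cells at high density (0.47 ± 0.34, limma with BH-adjusted p = 0.396). Cry2 (chr2:92403646-92434043, minus strand, GRCm38) had 49.7, 161 and 122 TPM in the D325H libraries and 3.84, 4.68 and 4.79 TPM in the EV libraries. All D325H libraries lay far above all EV libraries, and D325H replicate 1 was the lowest of its group. The difference was 4.21 ± 0.34 (limma, BH-adjusted p = 1.38e-07), and no library that was left out raised the adjusted p above 4.82e-06. Whether the reads under Cry2 in EV cells come from the disrupted allele was not tested. Myc, carried by all cells, had 57.1, 38.1 and 79.5 TPM with D325H and 67.2, 58.0 and 34.6 TPM with EV, so that the groups overlapped (0.12 ± 0.34, adjusted p = 0.909 by limma with BH). Cry1, the paralogue of Cry2, differed by 0.13 ± 0.18 and was not called either.

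The genes of the p53 pathway lay mostly lower in D325H cells. Trp53 itself (chr11:69580359-69591873, plus strand, GRCm38) had 59.2, 32.6 and 126 TPM with D325H and 281, 265 and 241 TPM with EV. The mean was 72.5 ± 48.0 TPM with D325H and 263 ± 20.1 TPM with EV (SD, n = 3 each). Every D325H library was below every EV library, but the D325H libraries were spread widely, and the difference of -2.05 ± 0.52 was not called (limma, BH-adjusted p = 0.0595). Without D325H replicate 3, the D325H library with the most Trp53 RNA, it was called (limma, BH-adjusted p = 0.0223).

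In the core loop around p53, Cdkn1a, which encodes the cell cycle inhibitor p21, had 102, 46.3 and 196 TPM with D325H and 393, 322 and 337 TPM with EV. Mdm2, the ubiquitin ligase that degrades p53 and is itself a p53 target, had 39.1, 26.4 and 48.8 TPM with D325H and 90.3, 72.4 and 83.9 TPM with EV. In neither gene did the groups overlap, and neither was called (-1.83 ± 0.58 for Cdkn1a, -1.13 ± 0.31 for Mdm2, limma with BH-adjusted p = 0.127 and 0.0804). Ccng1, cyclin G1, a p53 target that takes part in the feedback through MDM2, had 74.1, 47.9 and 137 TPM with D325H and 283, 238 and 273 TPM with EV. It fell by 1.73 ± 0.40 on the log2 scale (limma, BH-adjusted p = 0.0453). That call was lost in the 5 fits that left out a library other than D325H replicate 3, with adjusted p up to 0.266, and was kept without that replicate (0.0144). Mdm4 and Ppm1d, the other negative regulators in the loop, differed by -0.26 and -0.22. Of the 6 core genes 1 was called lower and none higher, with a median difference of -1.43 against -0.02 over all genes.

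The promoters of Ccng1 and Cdkn1a are shown because both genes are textbook p53 targets and hold the 10-base unit of the p53 response element (the p53 decamer) just upstream of their start. The sequences are the 250 bases before the RefSeq gene start (GRCm38.p6), on the strand of the gene, with matches to the decamer in capitals. The window of Ccng1 (chr11:40755287-40755536, minus strand) has 1 match that begins 185 bases before the start, and the window of Cdkn1a (chr17:29090729-29090978, plus strand) has 2 that begin 73 and 51 bases before it.
Ccng1: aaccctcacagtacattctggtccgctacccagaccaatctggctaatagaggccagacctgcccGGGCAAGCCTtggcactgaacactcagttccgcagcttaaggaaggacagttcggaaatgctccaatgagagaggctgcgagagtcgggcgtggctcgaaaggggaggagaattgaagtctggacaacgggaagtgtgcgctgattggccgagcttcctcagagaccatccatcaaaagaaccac
Cdkn1a: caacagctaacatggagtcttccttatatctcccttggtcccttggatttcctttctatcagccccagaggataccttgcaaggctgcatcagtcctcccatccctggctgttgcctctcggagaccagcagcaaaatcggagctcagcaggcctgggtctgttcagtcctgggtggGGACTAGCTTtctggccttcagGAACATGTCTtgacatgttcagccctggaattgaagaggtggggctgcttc
For the counts of promoters here and below, the whole promoter sequence was searched, of which the 250 bases before the start are shown. Of the 50 tested genes on the p53 lists, 41 had a RefSeq promoter. Of these, 14 held a match on either strand, including Trp53, Mdm2, Bax and Aen. Since a gene can have several RefSeq starts, these are 15 of 55 promoters, beside 8.36% of all 32851 promoters searched in the same way. The lists were drawn up as p53 targets, so their share does not measure an effect of D325H. Among the promoters of called genes, 4 of 49 for genes called lower and 5 of 52 for genes called higher held a match. A match is a description of the letters and not a measured binding site.

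Among 28 p53 targets for arrest and repair, 2 were called lower and 1 higher. Btg2, an antiproliferative gene of the BTG family, had 19.5, 18.1 and 33.6 TPM with D325H and 73.9, 79.2 and 82.8 TPM with EV. It fell by 1.74 ± 0.23 (limma, BH-adjusted p = 0.000776) and kept the call whichever library was left out, with adjusted p between 9.3e-05 and 0.0121. Phlda3, an inhibitor of AKT signalling, had 68.4, 48.8 and 106 TPM with D325H and 192, 167 and 187 TPM with EV. Its fall by 1.35 ± 0.31 was called (limma, BH-adjusted p = 0.0453), and was lost in the 5 fits without a library other than D325H replicate 3 (adjusted p up to 0.263).

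Ddb2, a damage recognition factor of nucleotide excision repair, was the list member called higher. Whether p53 acts on Ddb2 in these mouse cells was not tested. It had 9.86, 10.4 and 9.89 TPM with D325H and 5.44, 5.48 and 5.14 TPM with EV, with little spread in either group. Its difference of 0.80 ± 0.19 was called (limma, BH-adjusted p = 0.0456), and the call was lost with any of the 6 libraries left out (0.0523 to 0.216). The locus of Ddb2 overlaps Acp2 on the opposite strand, and the sources used here do not state whether strand was used in quantification.

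Other arrest and repair genes lay low without being called, such as Dglucy at 18.8 TPM with D325H and 74.7 TPM with EV on average (-2.12 ± 0.51) and Gdf15, a secreted stress cytokine, at 5.42 TPM with D325H and 20.1 TPM with EV (-1.87 ± 0.59). Sesn1, Gadd45a, Gadd45b and Plk2 had differences above 0 and were not called. Over the 28 genes the median difference was -0.46. In 19 of them, 67.9% beside 17.1% of all genes, every D325H library was below every EV library. In 3 of them, 10.7% beside 12.9% of all genes, every D325H library was above.

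Among 16 p53 targets of cell death, 1 was called lower and none higher, and all 16 differences were below 0. Ak1, adenylate kinase, had 45.3, 34.2 and 74.8 TPM with D325H and 132, 119 and 137 TPM with EV (-1.39 ± 0.32, limma with BH-adjusted p = 0.0456, up to 0.269 in the 5 fits that lost the call). Bax, the pore-forming protein of mitochondrial apoptosis, had 128, 81.3 and 175 TPM with D325H and 286, 245 and 256 TPM with EV. Its groups did not overlap and it was just outside the threshold (-1.09 ± 0.27, limma with BH-adjusted p = 0.0523). The median difference of the 16 genes was -1.02. Siva1, another p53-induced death gene that was not on the lists and was picked out after its values were seen, fell by 0.52 ± 0.10 (limma, BH-adjusted p = 0.0156, lost without any library other than D325H replicate 3, up to 0.129).

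In the 3 p53 lists as 1 set of 50 tested genes, 4 were called lower and 1 higher, and 44 differences were below 0. All D325H libraries lay below all EV libraries in 39 of the 50 genes, which is 78% beside 17.1% of all genes. The D325H libraries kept a common order in these genes. Replicate 2 was farthest from the EV mean in 43 of the 50 and replicate 3 was nearest in 42. The full order 2, 1, 3 held in 78%, against 28.9% of all genes tested. The order was not particular to the p53 genes. Among the 100 called genes it held in 49%, with replicate 2 farthest in 70 and replicate 3 nearest in 62. In Cry2 RNA replicate 1 was the lowest of the 3, and whether the order is linked to the level of the construct was not tested. Without D325H replicate 3, 18 genes of the 3 lists were called lower and none higher, among them Trp53, Mdm2, Bax and Sesn2, and without any other of the 6 libraries the 1 gene called was Btg2.

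**Figure D2:**
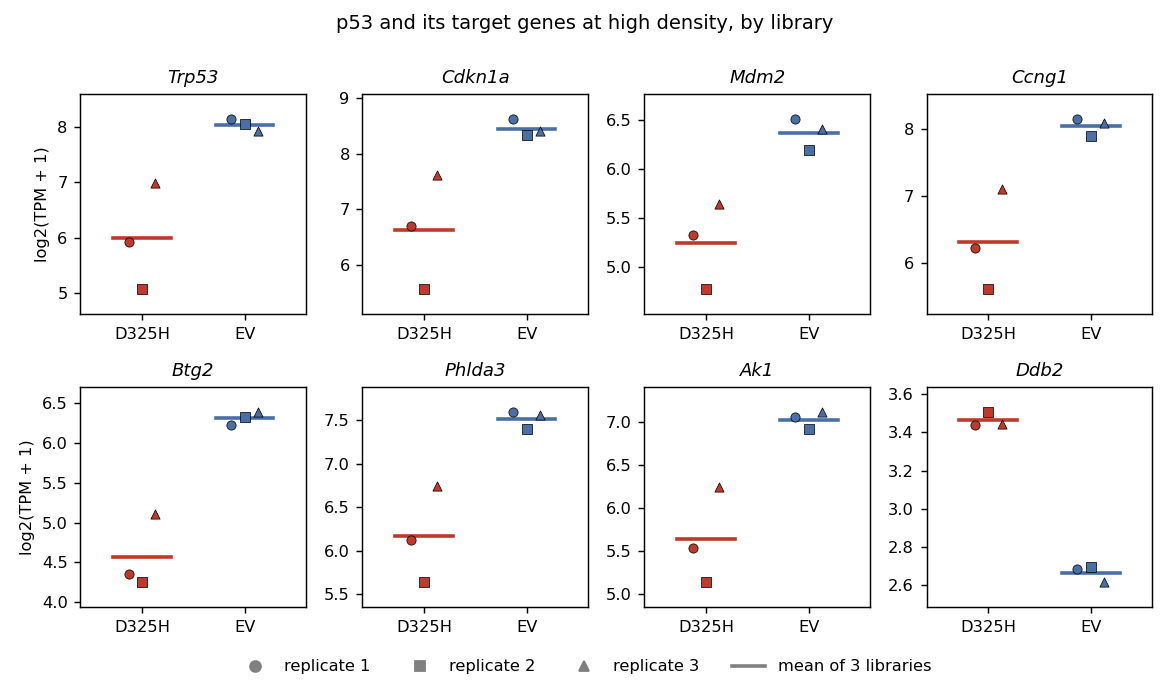
Each panel plots 1 gene as log2(TPM + 1) for the 3 D325H and the 3 EV libraries at high density, with a symbol for each replicate number, a bar at the group mean and an axis of its own that does not start at 0. In every panel the D325H libraries lie apart from the EV libraries, below them in 7 genes and above them in Ddb2, and D325H replicate 3 is the nearest to EV in the 7 genes that lie lower.

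Imprinted growth genes, expressed from 1 parental allele and active in the embryo, included some of the largest increases. Of 15 tested, 3 were called higher and 1 lower. Igf2, the fetal growth factor on distal chromosome 7, had 206, 290 and 91.8 TPM with D325H and 10.2, 17.8 and 32.1 TPM with EV. Cdkn1c, which encodes the cell cycle inhibitor p57 and lies in the neighbouring imprinted domain, had 161, 195 and 64.8 TPM with D325H and 22.4, 21.2 and 32.0 TPM with EV. Both sets of D325H libraries were above all EV libraries, with D325H replicate 3 the lowest of its group. Igf2 rose by 3.22 ± 0.74 and Cdkn1c by 2.31 ± 0.54 (limma, BH-adjusted p = 0.0453 and 0.0456). Both calls were kept without D325H replicate 3 (0.0257 and 0.0184) and lost without any other library (up to 0.239 and 0.263).

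Grb10, an adaptor that restrains insulin and IGF1 receptor signalling, was more even. It had 451, 603 and 379 TPM with D325H and 238, 260 and 258 TPM with EV and rose by 0.89 ± 0.14 (limma, BH-adjusted p = 0.00313, between 0.000487 and 0.0323 whichever library was left out). Igf2r, the receptor that clears IGF2, had 20.6, 35.1 and 24.6 TPM with D325H and 39.8, 42.2 and 38.6 TPM with EV. It fell by 0.60 ± 0.14 (limma, BH-adjusted p = 0.0453), a call kept only without D325H replicate 2 (0.00837) and lost in the other 5 fits (up to 0.171).

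Mest, an imprinted hydrolase gene, had 434, 487 and 397 TPM with D325H and 30.3, 67.7 and 89.9 TPM with EV, and with a spread shared over all groups it was not called (2.92 ± 0.75, limma with BH-adjusted p = 0.0595). Peg3 was uneven among the D325H libraries, at 60.8, 11.1 and 50.4 TPM, against 6.63, 10.3 and 17.2 TPM with EV, and was not called. Over the 15 genes the median difference was 0.62. In 10 of them, 66.7% beside 12.9% of all genes, every D325H library was above every EV library. In 2 of them, 13.3% beside 17.1% of all genes, every D325H library was below. Among 16 genes of the IGF axis, Igf2 and Igf2r were the only called members and the median was 0.22 (0.14 without D325H replicate 2).

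Contractile genes driven by serum response factor (SRF) lay higher with D325H. Of 17 tested, 2 were called higher and none lower, with a median difference of 0.52 and all D325H libraries above all EV libraries in 10 genes, 58.8% beside 12.9% of all genes. Without D325H replicate 2 the median was 0.30 and no gene of the list was called. Myl9, the regulatory light chain of smooth muscle and nonmuscle myosin, had 307, 605 and 206 TPM with D325H and 92.0, 91.9 and 81.9 TPM with EV. The EV libraries were close together, whereas the D325H libraries differed among themselves. It rose by 1.92 ± 0.37 (limma, BH-adjusted p = 0.0156). Tpm1, a tropomyosin of actin filaments, had 2493, 2569 and 1971 TPM with D325H and 1367, 1558 and 1397 TPM with EV and rose by 0.69 ± 0.15 (limma, BH-adjusted p = 0.0344). Both calls were kept without D325H replicate 3 and lost without any other library, with adjusted p up to 0.172 for Myl9 and 0.21 for Tpm1.

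Tagln (transgelin) at 506 TPM with D325H and 156 TPM with EV, Actg2 at 42.8 TPM with D325H and 12.6 TPM with EV, and Cnn1 (calponin) at 35.9 TPM with D325H and 13.8 TPM with EV had differences of 1.53, 1.57 and 1.25 and were not called. Mylk, the kinase that phosphorylates the myosin light chain, was among the 15 largest called increases (7.84, 22.0 and 5.43 TPM with D325H and 2.01, 2.58 and 2.99 TPM with EV, 1.64 ± 0.39, limma with BH-adjusted p = 0.0456, up to 0.308 when a library other than D325H replicate 3 was left out). Myocd, myocardin, the coactivator of SRF in smooth and cardiac muscle, was below the mean level required for naming and was picked out after its values were seen. It had 2.54, 3.83 and 2.76 TPM with D325H and 0.263, 0.378 and 0.303 TPM with EV. The groups lay far apart for its low level, and the difference of 1.61 ± 0.23 (limma, BH-adjusted p = 0.00203) was called whichever library was left out (up to 0.0317).

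The promoter of Myl9 is shown because it rose and carries a CArG box, the 10-base sequence bound by SRF. The window is the 250 bases before the RefSeq start (chr2:156775214-156775463, plus strand, GRCm38.p6), with the CArG box in capitals, 161 bases before the start.
Myl9: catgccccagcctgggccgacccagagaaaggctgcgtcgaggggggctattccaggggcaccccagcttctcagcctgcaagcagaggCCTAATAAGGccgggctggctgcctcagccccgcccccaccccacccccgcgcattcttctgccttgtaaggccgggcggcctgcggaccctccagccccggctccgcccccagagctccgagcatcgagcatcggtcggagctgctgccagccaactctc
Of 17 tested contractile genes, 14 had a RefSeq promoter, and Cnn2, Srf and Vcl held a CArG box there as well, searched on both strands. That is 4 of 15 promoters, and the share among all 32851 promoters was 1.63%. The list was drawn up as genes driven by SRF, so its share does not measure an effect of D325H. A CArG box was held by 2 of 52 promoters of the genes called higher and 0 of 49 of the genes called lower.

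**Figure D3:**
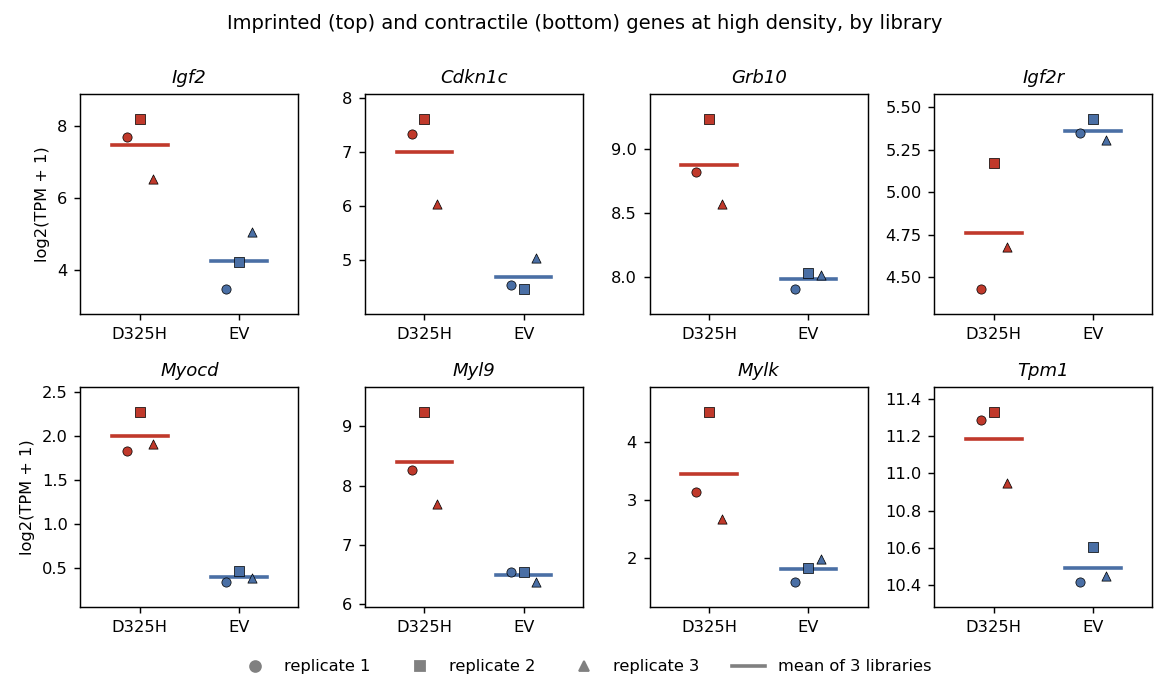
Each panel plots 1 gene as log2(TPM + 1) for the 3 D325H and the 3 EV libraries at high density, imprinted genes above and genes of contraction below, with a bar at the group mean and an axis of its own that does not start at 0. The libraries do not overlap in any panel, Igf2r is the 1 gene that lies lower with D325H, and D325H replicate 2 is the highest D325H library in all 8 panels.

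Tnnt3, fast skeletal troponin T, also rose, with 18.1, 30.5 and 15.4 TPM in D325H and 3.87, 5.23 and 5.40 TPM in EV libraries (1.89 ± 0.32, limma with BH-adjusted p = 0.00683). The call was lost without D325H replicate 2 (0.0858) and kept in the other 5 leave-one-out fits. It was the 1 called gene among 12 skeletal muscle markers, of which 4 passed the filter, and their summed level was 57.8 to 98.6 TPM with D325H and 24.5 to 38.1 TPM with EV. Myod1, Myf5 and Myf6 were at 0 in both groups, as stated above.

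Genes of the extracellular matrix lay higher in most cases, with few calls. Of 24 matrix glycoproteins and crosslinking enzymes, Mfap4 was called higher and none lower. Mfap4, a protein of elastic fibre microfibrils, had 14.5, 46.4 and 4.78 TPM with D325H and 0.549, 1.05 and 0.467 TPM with EV. Its D325H libraries spread over a wide range but all lay above EV, and it rose by 3.28 ± 0.61 (limma, BH-adjusted p = 0.0143, up to 0.155 without a library other than D325H replicate 3, 0.00214 without that one). Mfap4 overlaps Mapk7 on the opposite strand. Postn, periostin, had 1175, 3721 and 902 TPM with D325H and 267, 431 and 475 TPM with EV and was not called (2.05 ± 0.59, limma with BH-adjusted p = 0.0897). The median of the 24 genes was 0.69, and 13 had all D325H libraries above all EV libraries, 54.2% beside 12.9% of all genes. Without D325H replicate 2 the median was 0.39.

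Collagens were more mixed. Col18a1, the basement membrane collagen that yields endostatin, was called lower, at 64.0, 68.4 and 88.6 TPM with D325H and 196, 201 and 193 TPM with EV (-1.42 ± 0.28, limma with BH-adjusted p = 0.0169, up to 0.133 without a library other than D325H replicate 3). It overlaps Slc19a1 on the opposite strand. None of the other 18 collagens was called, and the median of the list was 0.16, between 0.069 without D325H replicate 2 and 0.36 without replicate 3. Col1a1, the main chain of fibrillar collagen I, averaged 1765 TPM with D325H and 889 TPM with EV, a difference of 0.86 ± 0.36 that was not called. None of 19 cartilage genes was called, and no gene had all D325H libraries above EV. Their median of 0.65 moved to 0.16 without EV replicate 1, to 0.22 and 0.35 without D325H replicates 2 and 3, and to 1.23 without D325H replicate 1.

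Further increases included Cox4i2, the hypoxia-linked isoform of a cytochrome c oxidase subunit, at 15.9, 9.64 and 9.82 TPM with D325H and 1.76, 0.530 and 0.514 TPM with EV (2.75 ± 0.46, limma with BH-adjusted p = 0.00683, lost without EV replicate 2 or 3 at 0.0504 and 0.0559). Lrch2, a leucine-rich repeat protein gene on the X chromosome, had 5.86, 8.06 and 6.56 TPM with D325H and 1.90, 1.28 and 1.17 TPM with EV. It rose by 1.68 ± 0.26 (limma, BH-adjusted p = 0.00356) and kept the call whichever library was left out. Ccn3, a secreted matricellular regulator, Pdpn, podoplanin, and Pdlim4, an actin-associated LIM protein, rose by 2.19 ± 0.48, 1.80 ± 0.38 and 1.54 ± 0.27 (limma, BH-adjusted p = 0.0379, 0.0306 and 0.0106). Of these, Pdlim4 lost the call without D325H replicate 2 or EV replicate 1 (0.105 and 0.0604), whereas Ccn3 and Pdpn kept it only without D325H replicate 3 (up to 0.251 and 0.21 in the other 5 fits).

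The lowest called genes outside the p53 lists began with Ltc4s, leukotriene C4 synthase, at 8.84, 7.37 and 38.2 TPM with D325H and 87.6, 78.0 and 75.5 TPM with EV. D325H replicate 3 lay between the other D325H libraries and EV, and the fall by 2.46 ± 0.57 had an adjusted p of 0.0456 by limma with BH, 0.00794 without that library and up to 0.266 without another. Fabp4, a fatty acid carrier of adipocytes, had 6.96, 3.82 and 9.86 TPM with D325H and 27.6, 25.1 and 25.4 TPM with EV (-1.85 ± 0.39, limma with BH-adjusted p = 0.0297, up to 0.21 without a library other than D325H replicate 3). Retn, resistin, another adipocyte marker, was also called (-0.85 ± 0.20, lost with any library but D325H replicate 3 left out). The 8 adipocyte markers, of which 6 were tested, summed to 49.0 to 73.0 TPM with D325H and 95.6 to 123 TPM with EV, while Lep was listed at 0 in both groups and Adipoq averaged 1.19 TPM with D325H and 1.64 TPM with EV. In cultures measured in bulk, fewer cells of a type and less RNA per cell cannot be told apart.

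Tob1, an antiproliferative gene of the same family as Btg2, had 49.5, 45.2 and 84.0 TPM with D325H and 131, 132 and 136 TPM with EV. It fell by 1.20 ± 0.23 (limma, BH-adjusted p = 0.0144, up to 0.155 without a library other than D325H replicate 3). Ptpn3, a protein tyrosine phosphatase, was steady in both groups, at 2.06, 1.93 and 2.07 TPM with D325H and 5.30, 4.67 and 5.00 TPM with EV (-0.99 ± 0.17, limma with BH-adjusted p = 0.00683, 0.0511 without D325H replicate 2 and called in the other 5 fits). Zrsr1, an imprinted splicing factor gene that lies inside Commd1 on the opposite strand, fell by 1.20 ± 0.21 (limma, BH-adjusted p = 0.00836, lost without D325H replicate 2 or EV replicate 2 at 0.0886 and 0.0653). Samhd1, a dNTP hydrolase, fell by 0.97 ± 0.22 (limma, BH-adjusted p = 0.0453, up to 0.247 without a library other than D325H replicate 3). Car12, carbonic anhydrase 12, was the 1 called gene of 25 in hypoxia and glycolysis (-1.20 ± 0.28, lost with any library but D325H replicate 3 left out), and the median of that list was -0.06.

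In the circadian clock no listed gene was called other than the introduced Cry2. Of 12 clock repressors and E-box outputs tested, 11 had a difference above 0, with a median of 0.35, and 6 had all D325H libraries above all EV libraries, 50% beside 12.9% of all genes. Without D325H replicate 2 the median was 0.19. Per2 and Per3, partners of the cryptochromes, had 3.73, 6.87 and 4.61 TPM and 4.28, 9.27 and 6.03 TPM with D325H, and 3.17, 3.14 and 2.74 TPM and 3.10, 2.56 and 2.67 TPM with EV. Their differences were 0.56 ± 0.17 and 0.94 ± 0.29 (limma, BH-adjusted p = 0.111 for each). Dbp, an output gene of the PAR bZIP family, differed by 0.67 ± 0.36 and Nr1d1, the repressor REV-ERB alpha, by 0.03 ± 0.33. Arntl, which encodes BMAL1, had 11.0, 6.57 and 10.9 TPM with D325H and 16.0, 14.4 and 16.3 TPM with EV (-0.69 ± 0.24, limma with BH-adjusted p = 0.162). Among 6 clock activators the median was -0.16.

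None of 30 S phase genes and none of 25 genes of G2 and mitosis was called. Their medians were -0.11 and 0.00, beside -0.02 over all genes, and no gene of G2 and mitosis had groups that did not overlap. Neither median had a fixed sign: the S phase genes were at 0.071 without D325H replicate 2 and at -0.23 without replicate 1, and the genes of G2 and mitosis at 0.23 and -0.16 in the same fits. Cdkn2a, which encodes p16 and ARF, had 713, 891 and 623 TPM with D325H and 460, 552 and 534 TPM with EV and was not called (0.51 ± 0.28, limma with BH-adjusted p = 0.38). Cdkn1c was the 1 called gene among 14 CDK inhibitors and genes of the RB axis.

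All 24 tested genes of ribosome biogenesis, a programme driven by MYC, had a difference below 0 and none was called. Their median was -0.38, and in 16 of them, 66.7% beside 17.1% of all genes, every D325H library was below every EV library. Nolc1, a nucleolar phosphoprotein, with 116, 82.6 and 118 TPM with D325H and 176, 152 and 140 TPM with EV, differed by -0.57 ± 0.23 (limma, BH-adjusted p = 0.215). Nucleotide synthesis enzymes had a median of -0.27 over 22 genes with no call. Of 19 NRF2 antioxidant genes none was called and the median was -0.32. Without D325H replicate 2 the medians of ribosome biogenesis, nucleotide synthesis and NRF2 genes were -0.25, -0.14 and -0.18. Nfe2l2, which encodes NRF2 itself, had 94.0, 81.0 and 110 TPM with D325H and 153, 141 and 143 TPM with EV, just outside the threshold (-0.62 ± 0.15, limma with BH-adjusted p = 0.0523).

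Cholesterol synthesis genes lay a little higher, with a median of 0.35 over 24 genes and none called. In 14 of them, 58.3% beside 12.9% of all genes, every D325H library was above every EV library. Hmgcs1, an early enzyme of the pathway, had 89.7, 93.0 and 89.9 TPM with D325H and 53.3, 63.7 and 56.6 TPM with EV (0.65 ± 0.17, limma with BH-adjusted p = 0.0733). Among 16 interferon response genes 1 was called higher, the chemokine Cxcl10, at 3.33, 3.16 and 1.82 TPM with D325H and 0.672, 0.275 and 0 TPM with EV (1.53 ± 0.35, limma with BH-adjusted p = 0.0456, up to 0.227 without a library other than D325H replicate 3). The median of that list was 0.36. Of 23 HOX genes, which keep positional identity in fibroblasts, none was called and the median was 0.24. The 13 mitochondrially encoded genes had a median of -0.01 (-0.27 to 0.25 with a library left out) and no call, and they took 1.68% to 3.31% of TPM with D325H and 1.93% to 3.34% with EV.

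**Figure D4:**
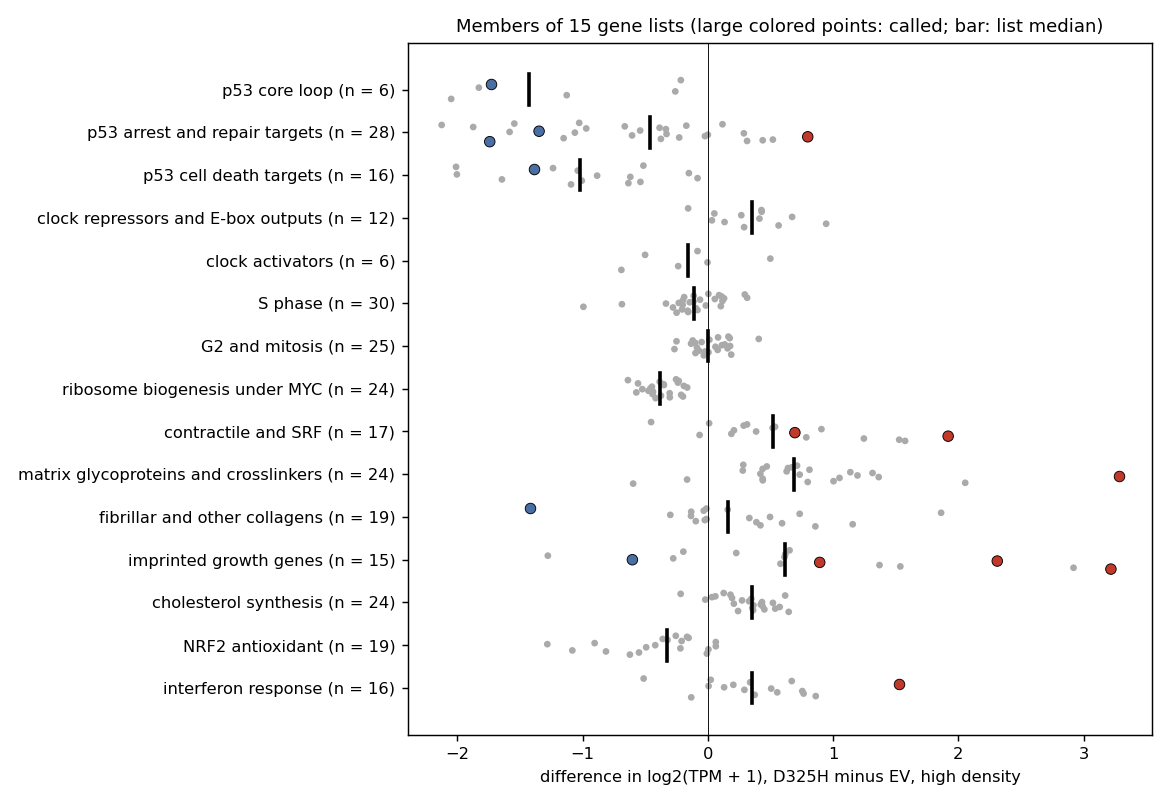
Each point is a tested gene of 15 gene lists, placed by its difference D325H minus EV in log2(TPM + 1) at high density, with called genes as large points (red higher, blue lower) and a bar at the median of the list. The 3 p53 lists and ribosome biogenesis lie to the left of 0, with medians from -1.43 to -0.38, and the contractile, matrix glycoprotein and imprinted lists lie to the right, with medians from 0.52 to 0.69, while G2 and mitosis is centred at 0.00.

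The low density cultures gave a comparison with libraries of their own, 3 D325H and 3 EV, that were plated more thinly and harvested later. Of the 100 genes called at high density, 97 had the same sign at low density, beside 70.8% of all genes, and 76 were called there in the same direction, beside 19.9% of all genes called at low density in either direction (2811 genes, 9.75% higher and 10.2% lower). None was called in the opposite direction. Both comparisons take a gene's spread from the same fit over all 30 libraries, so calls at the 2 densities are not independent. The 3 genes of opposite sign were Gm21972, Ltbp1 and Ptk2b. In 44 of the 100 the difference at low density was the larger in size, although the 100 were chosen by their difference at high density. The p53 lists had 36 of 50 genes called lower at low density and 2 higher, with a median of -1.37 at low and -0.77 at high density. Leaving out a low density library moved the count of all called genes to between 647 (without D325H replicate 1) and 4121 (without D325H replicate 3), and the p53 genes called lower to between 27 and 37. Mfap4 differed by 5.11 at low and 3.28 at high density, and Myl9 by 2.90 at low and 1.92 at high density. Cox4i2 differed by 1.45 at low and 2.75 at high density.

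The difference between the densities was itself tested for every gene, and none passed (limma, BH-adjusted p of at least 0.204 over 14093 genes), with 983 genes at an unadjusted p under 0.05, 6.98% of all. Among the 100 called genes 13 had such an unadjusted p. These genes were chosen by their difference at high density, which is part of this test. Their share therefore cannot be weighed against the 6.98%. The smallest p belonged to Stra6, the retinol transporter, Rbm3, a cold-inducible RNA-binding protein, and Pcdhgc4, a clustered protocadherin. Stra6 had 5.95, 3.10 and 3.56 TPM in D325H and 3.41, 2.61 and 3.20 TPM in EV cells at high density, and averaged 0.567 TPM in D325H and 4.31 TPM in EV cells at low density. Its difference was -1.74 at low and 0.32 at high density. Ltbp1, which binds latent TGF-beta, had 61.1, 65.3 and 60.6 TPM with D325H and 86.8, 102 and 93.0 TPM with EV at high density and was called lower there (-0.58 ± 0.11, limma with BH-adjusted p = 0.0146, up to 0.103 over the leave-one-out fits, 2 of which kept the call), against 0.11 at low density. The densities differ in both cells plated and harvest day, which cannot be told apart.

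**Figure D5:**
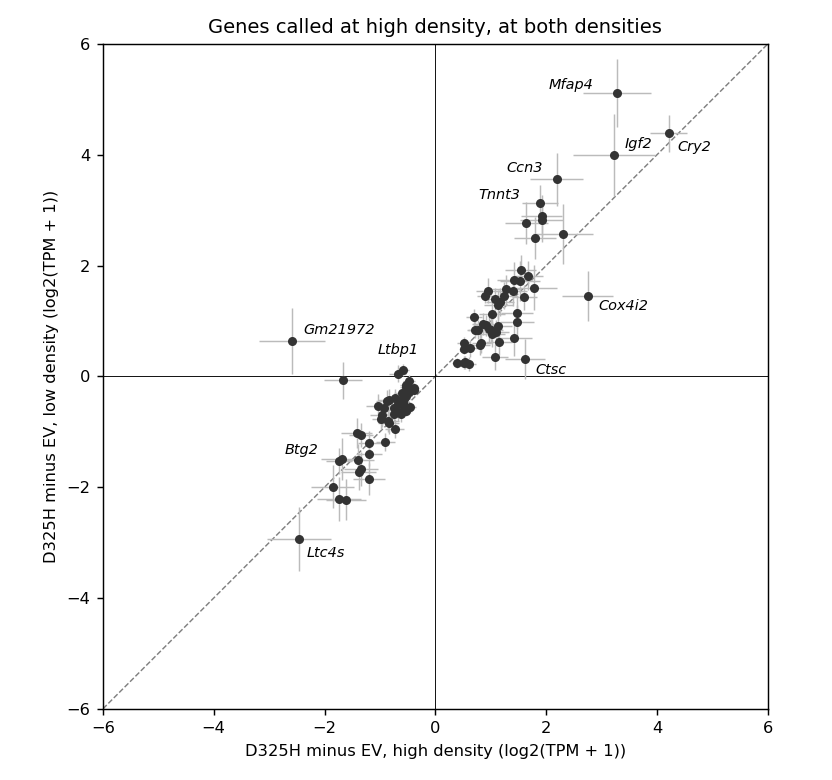
Each point is 1 of the 100 genes called at high density, placed by its difference D325H minus EV in log2(TPM + 1) at high density (horizontal) and at low density (vertical), with standard errors as bars and equality as the dashed line. All but 3 points lie in the quadrants of equal sign, Mfap4 and Ccn3 lie above the line, and Cox4i2 and Ctsc lie below it on the right.

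Cells with wild-type CRY2 at high density are set beside the D325H and EV cells here, and these comparisons share libraries with the one above. Cry2 averaged 111 ± 56.4 TPM with D325H, 72.3 ± 15.6 TPM with WT and 4.43 ± 0.518 TPM with EV (SD, n = 3 each). D325H cells differed from WT cells in 1436 genes (10.2%, of which 5.46% higher and 4.73% lower, limma, BH-adjusted), and WT cells from EV cells in 4 (0.0284%), with 979 at an unadjusted p under 0.05. Trp53 averaged 72.5 TPM with D325H, 266 TPM with WT and 263 TPM with EV, and its difference from WT was called (-2.07, limma with BH-adjusted p = 0.015). Cdkn1a averaged 115 TPM with D325H, 508 TPM with WT and 351 TPM with EV, and Mdm2 38.1 TPM with D325H, 119 TPM with WT and 82.2 TPM with EV. For both the difference from WT was called (-2.36 and -1.66, limma with BH-adjusted p = 0.0135 and 0.00291). WT and EV cells differed by 0.54 in Cdkn1a and by 0.53 in Mdm2, and neither difference was called. Against WT, all 6 genes of the p53 core loop, 17 of 28 arrest and repair genes and 14 of 16 death genes were called lower, and 2 arrest and repair genes higher. Of the 50 genes, 14 were called lower without D325H replicate 2, 26 and 28 without WT replicates 1 and 3, and 34 to 37 without another of these libraries. Without D325H replicate 2 the count of genes that differ from WT was 253, without WT replicate 1, 2 or 3 it was 491, 903 and 479, and the calls of Trp53 and Cdkn1a ended (limma, BH-adjusted p = 0.125 and 0.118 without D325H replicate 2). Trp53 also lost its call against WT without WT replicate 1 or 3 (0.0517 and 0.056) and Cdkn1a without WT replicate 3 (0.0568).

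Igf2, Cdkn1c, Grb10 and Myl9 averaged 14.2, 14.2, 195 and 77.3 TPM in WT cells, against means of 20.0, 25.2, 252 and 88.6 TPM in EV cells, and each was called higher in D325H than in WT cells. A few genes called against EV were instead close to WT, and were picked out after their values were seen. Gm15280, annotated as an unprocessed pseudogene on the X chromosome, had 12.5, 12.7 and 12.5 TPM with D325H and 33.2 ± 1.91 TPM with EV (SD, n = 3, -1.34 ± 0.22, limma with BH-adjusted p = 0.00659), and averaged 11.6 TPM with WT, which was also called lower than EV (-1.44). Reads of a pseudogene may be shared with its parent gene, so its level is less certain. Ctsc, the protease cathepsin C, had 2.56, 4.02 and 4.56 TPM with D325H and 0.561, 0.739 and 0.268 TPM with EV and averaged 2.46 TPM with WT, where its difference from EV (1.17) was not called. The call of Ctsc in D325H against EV (1.62 ± 0.36, limma with BH-adjusted p = 0.0385) was lost with any of the 6 libraries left out (0.0604 to 0.202).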

How the data were processed

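The authors deposited 1 table of TPM values, with 34724 gene symbols for the 30 libraries, and 26437 symbols had a value above 0 somewhere in it. According to the labels the reads were 50 nt long. Per the submitters' processing notes the tool was kallisto and the assembly GRCh37.p13. That assembly is human, whereas 34095 symbols matched the mouse annotation GENCODE M21, and the transcript set and the summing to genes are not given in the sources used here. TPM sums to nearly the same total in each library (960238 to 965790). The number of reads behind a value is therefore unknown and precision rests on the replicates alone. kallisto shares reads among like transcripts, which makes levels of paralogues and pseudogenes less certain. The table's columns carry the sample numbers of the titles, and 0 columns were left without a sample. No libraries were duplicates of each other.

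The scale was log2(TPM + 1). A gene was tested if 3 or more of the 30 libraries reached 1 TPM (14093 genes). limma 3.58.1 in R 4.3.3 fitted 1 mean per group over all 10 groups with a moderated, trended variance, and a BH-adjusted p under 0.05 was called. The fit was tested on simulated data. Genes were named as follows. Cry2, Myc and Trp53 with Cry1, Cdkn1a, Mdm2, Cdkn2a, Per2, Nr1d1 and Dbp came first. Then came the 15 highest and 15 lowest called genes whose mean on the log2 scale was 2 or more and whose groups do not overlap, with annotated pseudogenes and predicted genes passed over. Each list added up to 4 called members, or the 2 of smallest p where none was called, and the density difference its 5 smallest p. Some named genes are left out of the text, and genes outside the rule are said to be so. The comparison, the 43 gene lists and the rule were chosen with earlier results of these data known. Promoters are from RefSeq (GRCm38.p6) and positions from GENCODE M21 (GRCm38). Python 3.11.15, pandas 2.3.3, numpy 2.4.6 and matplotlib 3.10.9 were used. Alternatives changed the pseudocount (0.1 or 5), the filter (none, or a mean of 5 TPM) or the scaling (quantile normalization or median ratios on genes averaging 10 TPM or more), or used replicate number as a block, no variance trend, only the groups compared, or all libraries but 1.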

Additional observations from a re-analysis of the deposited data

How the results depend on the processing

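Of the 100 genes called at high density none changed sign under an alternative in which it was tested, and the filter on mean TPM tested 76 of them. The count was 44 with no filter on low values, 153 with median-ratio scaling and 7 with only the groups compared fitted, where the spread rests on 6 libraries, and ran from 9 to 259 with a library left out. Pseudocounts of 0.1 and 5, the filter on mean TPM, quantile normalization and no variance trend gave 85 to 150. With the filter on mean TPM 41 genes were higher and 57 lower of 98 called. At low density the count was 5 with only the groups compared and ran from 647 to 4121 with a library left out. For the difference between densities the count was 1 with no filter, 0 under the other settings that kept all libraries, and 0 to 3 with a library left out. Against WT it ran from 253 to 1416 with a library left out.

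The replicate numbers were checked for pairing. Same-numbered D325H and EV libraries at high density deviated together with r = 0.19, 0.09 and 0.02 across genes. Of these D325H libraries, 2 of the 3 correlated best with their own number. At low density r was -0.05, 0.22 and 0.14. Between D325H and WT at high density it was 0.04, 0.03 and 0.05, each best with its own number. These values are small and do not settle whether the numbers pair the libraries. With replicate number as a block, 144 genes were called at high density, all 100 among them, 2958 at low density, 0 for the difference between densities and 1537 against WT.

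Among the called genes and those named by the rule, signs turned in 4 genes that were never called, all when a library was left out. Myc ran from -0.16 to 0.39, with -0.13 without D325H replicate 3. Nr1d1 was -0.043 without D325H replicate 2, -0.013 without EV replicate 2 and -0.078 without EV replicate 3. The mitochondrial gene mt-Nd6 ran from -0.063 to 0.36, with -0.024 without D325H replicate 3, and Cd68 ran from -0.50 to 0.21. The causes were not tested. The number of reads behind a TPM value is unknown, so genes near the filter, such as Cxcl10 and Myocd, have no counting error attached.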
